A study of Pseudopodoces humilis with 2 samples.

Results

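In the ground tit (Pseudopodoces humilis), 500 of 11413 spliced liver loci (4.38%, Wilson 95% interval 4.02 to 4.77) lay where no spliced transcript had been assembled from muscle. These 500 loci are called liver-only loci here. A spliced transcript is one with 2 or more exons. A locus is a stretch of scaffold, introns included, covered by spliced transcripts whose spans overlap by 1 base or more, whichever their strand. A liver locus was a member when it shared no base with any spliced locus of the 2 muscle assemblies pooled, which held 12991 loci. The members were thus chosen by the assembled transcripts of both tissues, and what follows on their place relative to muscle is a description with no test. Liver-only means without a spliced muscle transcript at that place, and it does not mean without muscle RNA.

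The series holds 1 liver and 1 muscle sample, each prepared from total RNA with the TruSeq RNA kit of Illumina, to help annotate the genes of this species. The labels give the tissue and no age, sex, number of birds or kind of muscle. With 1 sample per tissue there was no replicate check, and no difference between the tissues was tested. The gene table could be traced back to 46313678 liver reads. Its muscle column is an average over a larger library of 86472618 and a smaller one of 47542891 reads. Nothing tied these libraries to the 2 muscle assemblies. The files pair no gene ID with a name, so liver and muscle could not be checked against their marker genes, and loci are given by scaffold and position (1-based, as deposited).

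A spliced gene is transcribed as a long RNA from which the introns are cut, and reads that cross a splice junction let an assembler join exons and, in most cases, read the strand from the junction. The liver makes most plasma proteins, bile acids and many enzymes of detoxification and of lipid and amino acid metabolism, while muscle RNA is rich in contractile and energy metabolism transcripts. An assembler needs enough reads over each junction, so a gene with few reads is often built in pieces or not at all.

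The liver-only loci were short and had few exons. For each locus the transcript with the most exons was used. Their median was 4 exons (quartiles 2 and 7, highest 40), against 8 exons (4 and 13, highest 93) for the 10913 spliced liver loci that shared bases with muscle. Exactly 2 exons were found in 151 liver-only loci (30.2%, Wilson 95% interval 26.3 to 34.4), against 1116 of the others (10.2%, 9.67 to 10.8). At the other end, 72 liver-only loci (14.4%) and 4304 of the others (39.4%) had 10 or more exons. The rule asks that the whole span be free of spliced muscle transcripts, so span and exon number are not independent of it.

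**Figure D1:**
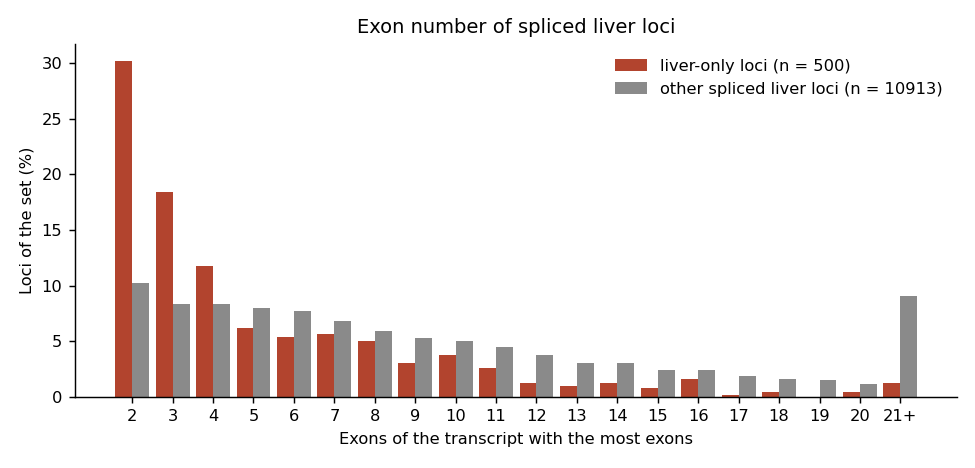
Percent of loci (vertical axis) by exon number of the transcript with the most exons (horizontal axis, 21 or more pooled), for the 500 liver-only loci and the 10913 other spliced liver loci. Loci of 2 exons make up 30.2% of the liver-only loci and 10.2% of the others.

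The spliced length of the liver-only loci had a median of 1266 bases (quartiles 730.25 and 2156.5), against 2102 bases (1129 and 3690) for the others. A length under 500 bases was found in 67 liver-only loci (13.4%) and 786 of the others (7.20%). A length of 5000 bases or more was found in 18 (3.6%) and 1524 (14%). The spans, introns included, had medians of 5290 bases in the liver-only loci and 11653 bases in the others.

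Introns and internal exons had similar medians. The median intron was 795 bases in the liver-only loci (2165 introns, shortest 52) and 806 bases in the others (97073 introns, shortest 50). Short introns were more frequent in the liver-only loci, where 7.85% were of 100 bases or fewer (Wilson 95% interval 6.79 to 9.06), against 5.82% (5.67 to 5.97), and the lower quartile was 321 bases, against 374. The intervals for introns and internal exons treat those of a locus as independent, so they are too narrow to compare the shares. The median internal exon was 123 bases, against 122 bases, and 85.3% of 1665 internal exons, against 84.5% of 86160, were 50 to 200 bases long. A length divisible by 3, which keeps the reading frame when a coding exon is left out, was found in 37.4% of the internal exons of liver-only loci (Wilson 95% interval 35.1 to 39.8) and in 38.8% of the others (38.5 to 39.1). The last exon, which usually holds the end of the coding region and the 3′ UTR, differed more. Its median was 527.5 bases in the liver-only loci and 804 bases in the others, while first exons had medians of 133 and 124 bases. The shorter spliced length thus went with fewer exons and shorter last exons, at internal exons of like size.

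Few liver-only loci were long chains of exons. The 6 with the most exons were all without a muscle transcript of any exon number in their span. The longest chain ran from position 1360995 to 1376706 on scaffold 22645, on the minus strand, with 40 exons in 15712 bases and 5644 spliced bases. Its introns had a median of 215 bases and none was over 919 bases, so the locus was compact. A similar compact structure of 35 exons was assembled on scaffold 11461, from 99148 to 110999, with a median intron of 153.5 bases and 5109 spliced bases. That locus ended 193 bases from a spliced muscle locus on the opposite strand.

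The next chains were more open. On scaffold 22986 a locus of 28 exons covered positions 2368103 to 2398395, with a median intron of 874 bases and a longest exon of 907 bases. Scaffold 2742 held 23 exons from 353816 to 370857. Scaffolds 15324 (873288 to 904019) and 22634 (284098 to 306319) each held 21 exons, with 5911 and 3455 spliced bases. In all, 8 liver-only loci reached 20 exons (1.60%), against 1119 of the others (10.3%).

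**Figure D2:**
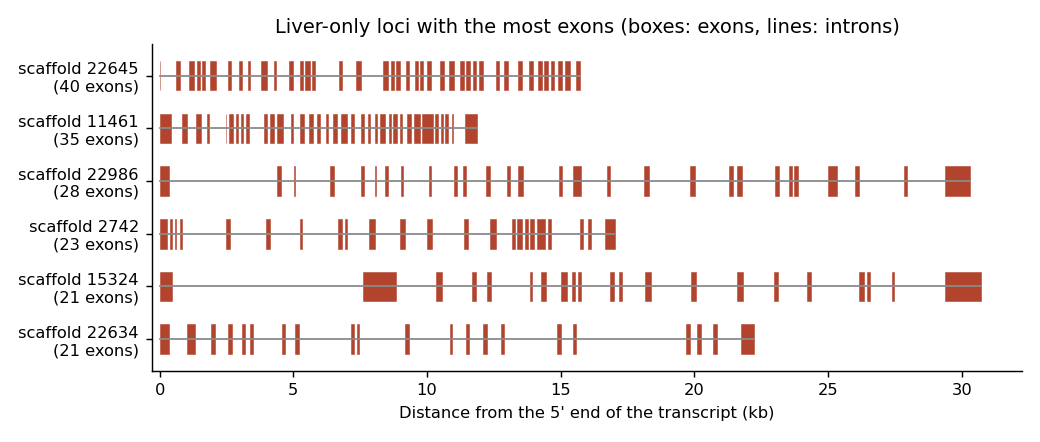
Exons (boxes) and introns (lines) of the 6 liver-only loci with the most exons, by distance in kb from the 5′ end of the transcript. The loci of 40 and 35 exons on scaffolds 22645 and 11461 fit in 15712 and 11852 bases, while the locus of 28 exons on scaffold 22986 covers 30293 bases.

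The loci with the longest spliced transcripts were not those with the most exons. The longest had 2 exons and 8673 bases, on scaffold 22591 from 1309195 to 1331390, with 1 exon of 8609 bases. The next, on scaffold 22359 from 866383 to 888565, also had 2 exons and 8525 bases, of which 7264 lay in 1 exon. They were followed by 20 exons and 8119 bases on scaffold 21879 (1158629 to 1245573), with an exon of 4705 bases, and by 8 exons and 7128 bases on scaffold 17991 (1019719 to 1047709), with an exon of 6311 bases. The spans on scaffolds 22591 and 17991 also held 3 loci each of 1-exon muscle transcripts, which covered 76.2% and 73.7% of the exonic bases. In each of these 4 loci 1 exon held over 50% of the spliced length.

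A few loci owed their size to introns. The largest span, 345341 bases, lay on scaffold 22954 from 221455 to 566795, with 12 exons, 2836 spliced bases and an intron of 163984 bases. On scaffold 18392 (77045 to 391764) 4 exons with 449 spliced bases were spread over 314720 bases, with a longest intron of 157826 bases. On scaffold 15335 (203401 to 434813) 3 exons with 938 spliced bases covered 231413 bases, with a longest intron of 155295 bases. These 3 loci also had the 3 longest introns. An intron of 20 kb or more was found in 37 liver-only loci (7.40%, 5.42 to 10.03) and in 1125 of the others (10.3%, 9.75 to 10.9).

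The share of liver loci that were liver-only was lower in the classes of more exons. It was 11.9% of the 1267 liver loci of 2 exons, 9.22% of those of 3 exons, 6.11% of those of 4 and 3.27% of those of 5 or 6. It was 3.34% at 7 to 9 exons, 2.26% at 10 to 14, 1.39% at 15 to 19 and 0.710% (Wilson 95% interval 0.360 to 1.39) at 20 or more. Of neighbouring classes, only those of 4 and of 5 to 6 exons had intervals that did not overlap, while the interval at 2 exons (10.2 to 13.8) lay above those of every class from 4 exons on. The intervals measure counting error alone, and exon number is not independent of the rule, so this order is a description. By the number of spliced liver loci on the scaffold the share moved less, from 5.98% where the locus was alone to 3.36% at 10 to 19 loci and 4.62% at 50 or more.

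**Figure D3:**
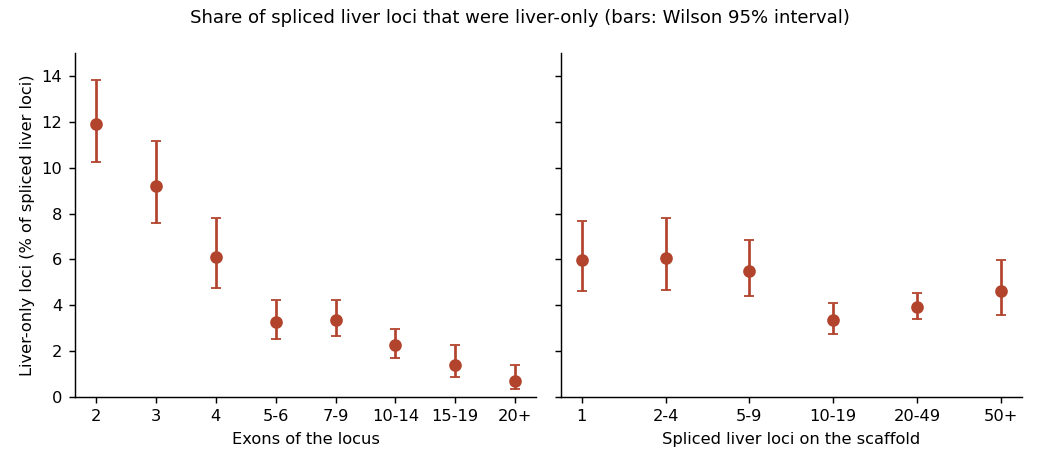
Liver-only loci as percent of all spliced liver loci (vertical axes, with Wilson 95% intervals as bars), by exon number of the locus (left) and by the number of spliced liver loci on its scaffold (right). The share is 11.9% at 2 exons and 0.710% at 20 or more.

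Liver loci could also be sorted by how many muscle assemblies met them. Besides the 500 loci in neither assembly, 410 were met by a spliced locus of muscle assembly 2 alone, 313 of muscle assembly 3 alone, and 10190 of both. The median exon number was 4, 5, 6 and 8 in this order, and the median spliced length 1266, 1434, 1838 and 2145.5 bases. The share of loci with 2 exons was 30.2%, 21.2%, 14.1% and 9.67%. In these 3 measures the loci met by 1 muscle assembly lay between the liver-only loci and those met by both. The median span, at 5290, 6769.5, 8313 and 12011.5 bases, had the same order. Transcript number and intron length had no such order. The share of loci with 2 or more transcripts was 25%, 31.0%, 43.8% and 39.7%, and the median intron 795, 745.5, 717 and 810 bases. With 1 muscle assembly in place of both, 813 (assembly 2) or 910 (assembly 3) loci would be liver-only.

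Most liver-only loci had 1 transcript. In 375 loci (75%) a single spliced transcript was assembled, and 125 (25%, Wilson 95% interval 21.4 to 29.0) had 2 or more, against 39.5% (38.6 to 40.4) of the others. Among loci of 5 or more exons the shares were 37.9% (75 of 198; 31.4 to 44.8) and 47.6% (46.5 to 48.7). In all, the 500 loci held 679 spliced transcripts.

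Where a liver-only locus had several transcripts, they were compared with the transcript of most exons. In 100 of the 125 loci another transcript shared at least 1 intron with it. An exon joined at another splice site, with the exons on that side overlapping, was found in 53 loci. First exons that did not overlap were found in 44 loci and last exons that did not overlap in 36. A skipped internal exon was found in 26 loci and a retained intron in 12, and a locus may show several of these. Transcripts on both strands were merged in 8 loci. A first or last exon that lies elsewhere can also be a piece of an incompletely assembled transcript, which was not tested.

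The loci with the most transcripts show this range. On scaffold 11323, from 1000693 to 1018402, 5 transcripts of up to 4 exons differed in their last exons, and at least 1 shared no intron with the longest chain. On scaffold 14200 (350562 to 382195) 5 transcripts of up to 6 exons differed by a skipped exon and by their last exons, and on scaffold 22310 (1446179 to 1479159) 5 transcripts differed at splice sites and at both ends. Scaffold 1953 (796006 to 810539) held 4 transcripts of up to 8 exons, at least 1 of which shared no intron with the longest chain. Cufflinks scores transcripts up to 1000 within a locus. In 60 of the 125 loci (48.0%) the transcript with the most exons had the top score, alone or tied, and in the rest another transcript had it. Loci here merge overlapping spans of either strand, so 1 of them can pool several Cufflinks loci, whose scores do not compare. On scaffolds 3034, 6962 and 12020, with transcripts on both strands, the lowest score was also 1000.

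Most liver-only loci lay on scaffolds that also held a spliced muscle locus. They were spread over 336 of the 1818 scaffolds with a spliced liver locus. For 443 of the 500 loci a spliced muscle locus was present on the same scaffold, and 351 liver-only loci (70.2%) had one on both sides. The nearest spliced muscle locus was a median of 5412 bases away (quartiles 1453.5 and 18506.5, farthest 810928). For the other liver loci, the nearest spliced muscle locus that they did not touch was a median of 4555 bases away. Within 1 kb of a spliced muscle locus were 87 of these 443 liver-only loci (19.6%, Wilson 95% interval 16.2 to 23.6), against 21.3% (20.5 to 22.1) of the 10063 others with a further muscle locus on the scaffold. These intervals overlap. The nearest muscle locus also held a spliced liver transcript in 373 of 443 cases (84.2%). This share was not counted over all muscle loci, nor the share with muscle loci on both sides over the other liver loci. Neither is thus shown to be particular to liver-only loci.

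The strand of the nearest muscle locus was the same in 196 cases, the opposite in 204, and mixed in 43. Within 1 kb the opposite strand was more common than the same strand, with 51 of 87 loci (58.6%, Wilson 95% interval 48.1 to 68.4) against 27, and 9 were mixed. That interval overlaps the one over all 443 cases (46.0%, 41.5 to 50.7). The strand of near neighbours was not counted for the other spliced liver loci, so this is not shown to be particular to liver-only loci. Of the 51, the muscle neighbour lay upstream of the liver-only locus in 25 and downstream in 26. No orientation toward the neighbour thus stood out among them.

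The rule turns on 1 shared base, and few loci were close to that limit. Just inside, a locus of 2 exons on scaffold 15493 (328 to 694) lay 37 bases from a spliced muscle locus on the same strand (16 to 290). Next were 5 exons on scaffold 2631 (124268 to 126891), 41 bases away, and 8 exons on scaffold 22310 (2246987 to 2258322), 58 bases away, both next to the opposite strand. Just outside, a locus of 5 exons on scaffold 22790 (3567533 to 3578891) shared 18 bases with a muscle locus, 12 exons on scaffold 18272 (28795 to 34321) shared 60 bases, and 3 exons on scaffold 22978 (3082334 to 3084416) shared 62 bases. Only these 3 of the 10913 other loci shared under 100 bases, and 27 shared part of a span but no exonic base.

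Muscle transcripts of 1 exon were found in some liver-only loci. Such transcripts did not enter the rule, and each can be a piece of a spliced transcript, which was not tested. They shared bases with 92 of the 500 liver-only loci (18.4%, Wilson 95% interval 15.2 to 22.03), and with 1649 of the 10913 others (15.1%, 14.5 to 15.8). The intervals of these shares overlap. In 79 of the 92 the muscle transcript lay over liver exons, and in 13 it lay within introns. Over the 79 loci a median of 65.3% of the exonic bases was covered (quartiles 36.5 and 92.2), and 51 were covered to 50% or more. The 92 loci had a median of 3 exons and last exons of 1027.5 bases, against 4 exons and 490 bases in the 408 without. In these 79 loci muscle RNA was thus present over liver exons without an assembled splice junction.

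Several liver-only loci were neighbours. Of 393 liver-only loci followed on the scaffold by another spliced liver locus, 58 (14.8%, 11.6 to 18.6) were followed by another liver-only locus, where such loci make up 4.38% of all. The 58 pairs were a median of 2063.5 bases apart, against 8444 bases for all 9595 adjacent pairs of spliced liver loci. They were on the same strand in 42 cases (72.4%), against 53.4% of all pairs, and 16 of them (27.6%) were on the same strand within 1 kb, against 8.32% of all pairs. Pairs so close can be parts of 1 gene, which was not tested. An example is the chain of 40 exons on scaffold 22645, which lay 125 bases from a liver-only locus of 5 exons (1358010 to 1360869) on the same strand. Among the 40 pairs over 1 kb apart, 26 (65.0%, 49.5 to 77.9) were on the same strand.

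The scaffold with the most members was scaffold 3513, with 10 liver-only loci among 89 spliced liver loci and 93 spliced muscle loci. They lay between 85286 and 825137 and had 3 to 12 exons. A run of 3 on the plus strand stood from 356628 to 403716, with 4, 11 and 8 exons and no muscle locus between them, and a pair of 6 and 9 exons on the minus strand stood 605 bases apart at 197384 to 201968. Of the 10 loci, 8 had introns with medians of 81 to 202.5 bases. Scaffold 3513 lists 119 genes, of which 4 were at least 4-fold higher in liver and 9 in muscle by the gene table, but the files do not tie these genes to loci.

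**Figure D4:**
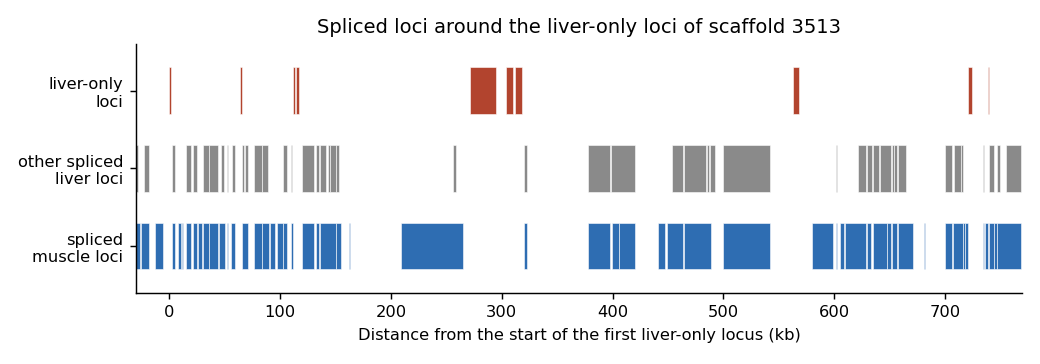
Spans of liver-only loci, other spliced liver loci and spliced muscle loci on scaffold 3513, by distance in kb from the start of its first liver-only locus. The 10 liver-only loci stand in gaps between the muscle loci, with the run of 3 near the middle left.

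The next 3 scaffolds held 7, 6 and 6 liver-only loci. Scaffold 14538 had 7 liver-only loci of 2 to 12 exons among 30 spliced liver loci, between 578531 and 1757343. One of them, from 1446474 to 1499806, had 4 transcripts and an intron of 43649 bases. Scaffold 21754 had 6 of 49, and 4 of these formed a run on the plus strand from 422124 to 453863, with 12, 8, 4 and 2 exons. Scaffold 22645 had 6 of 83, which included the chain of 40 exons and a locus of 15 exons in 4070 bases (3864394 to 3868463).

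A second run of 4, named after its values were seen, lay on scaffold 22954. All 4 loci were on the minus strand, with 10, 3, 7 and 12 exons, from 150658 to 566795, and the scaffold had 6 spliced liver and 2 spliced muscle loci. The 4 genes listed on it had 0.0273, 0.111, 0.218 and 0.0456 RPKM in liver, against 0.00305, 0.0117, 0.681 and 0.0802 RPKM in muscle. RPKM divides a gene's reads by its length and by the size of the library. The RPKM values were low in both tissues, but the reads and lengths behind them were not recovered. Some gene lengths recovered on other scaffolds were near the span with introns, and a long length lowers RPKM. Low RPKM here thus need not mean few reads.

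On some scaffolds, most of them small, no spliced liver locus was shared with muscle. There were 59 scaffolds on which every spliced liver locus was liver-only, which made up 62 loci, and 42 of these had 2 exons. Their exon number was not compared with that of shared loci on scaffolds of like size. Not all of the 59 were small, as scaffold 20698 held liver-only loci of 16 exons up to position 106105. The furthest base assembled in any of the files lay at a median of 1308 on these scaffolds, against 48522 on all scaffolds with a spliced liver locus. A first base within 100 bases of the scaffold start was found in 27 liver-only loci (5.40%, 3.74 to 7.74) and in 301 of the others (2.76%, 2.47 to 3.08). Such loci may be cut by the end of the scaffold, which was not tested.

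The gene table gave levels for genes on the scaffolds of these loci. Genes have no positions in the files, so a gene was set beside a liver-only locus only where it was the single gene listed on the scaffold, which applied to 30 genes and 33 loci. Of these, 21 (70%) had the higher RPKM in liver and 9 in muscle, where liver had the higher RPKM for 21.2% of all 15394 genes and for 15.4% of the 518 genes alone on a scaffold whose spliced liver loci were all shared with muscle. On the scale of log2(RPKM + 1), 11 were at least 4-fold higher in liver and 0 in muscle. The count of 11 depends on the pseudocount and was 1 with a pseudocount of 5 and 16 with one of 0.1. With the pseudocount of 1, the same rule held for 2.29% of all genes in liver and 4.49% in muscle, and for 2.7% and 4.25% of the 518. The same reads lie behind the table and the assemblies, so these counts are tied to the choice of the loci and are a description. The median difference, liver minus muscle, was 0.84 for the 30 genes and -0.53 for the 518, and the median of all genes was -0.21. The median of the 30 was 0.28 with a pseudocount of 5, 2.31 with one of 0.1, 1.97 over the 22 genes with at least 1 RPKM in either tissue, and 1.41 when centred on genes with 1 RPKM or more in both tissues.

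On the scale of log2(RPKM + 1), the largest difference of the 30 belonged to the gene on scaffold 15493, evm.TU.scaffold15493.1, though other genes had a lower ratio of muscle to liver RPKM. Its liver level was 15.3 RPKM (exact Poisson 95% interval 13.4 to 17.4 for counting error, from 236 reads). The larger muscle library gave it 0.139 RPKM (0.0378 to 0.356, from 4 reads) and the smaller 0.189 RPKM (0.0391 to 0.554, from 3 reads), so the difference was 3.81. The liver-only locus of 2 exons on that scaffold is the one 37 bases from a spliced muscle locus on the same strand, so muscle reads did assemble beside it. Since the scaffold held that muscle locus as well, the gene need not be the liver-only locus.

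On scaffold 21557, evm.TU.scaffold21557.1 had 13.0 RPKM in liver (11.4 to 14.8, 236 reads), against 0.0590 and 0.0537 RPKM in the muscle libraries, from 2 and 1 reads. The difference was 3.73. Its locus of 2 exons spanned 394 bases, close to the recovered gene length of 392. The gene on scaffold 188144 had 21.7 RPKM in liver (19.2 to 24.3), against 0.861 and 1.04 RPKM in the muscle libraries, which gave a difference of 3.54. A 1-exon muscle transcript covered 96.5% of the exonic bases of the liver-only locus there. The recovered gene length of 282 bases, which can be a lower bound, was under the span (728 bases) and the 649 spliced bases of that locus. The gene thus need not be the liver-only locus.

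Other genes with high liver RPKM stood on scaffolds 15364 and 17085. The gene on scaffold 15364 had 8.71 RPKM in liver from 1431 reads, against 0.0587 and 0.166 RPKM in the muscle libraries. That scaffold also held a second spliced liver locus and a spliced muscle locus, so the gene need not be the liver-only locus. The gene on scaffold 17085 had 8.25 RPKM in liver from 376 reads, against 0.118 and 0.0214 RPKM in the muscle libraries. For these genes and those on scaffolds 15493, 21557 and 188144, the liver interval lay above both muscle intervals.

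Not every such gene was low in muscle. The highest liver level of the 30 was on scaffold 20012, with 61.2 RPKM in liver (59.7 to 62.6, 6956 reads), against 18.5 RPKM (17.9 to 19.04) in the larger muscle library and 13.3 RPKM (12.6 to 13.96) in the smaller. The difference was 1.88. On that scaffold a 1-exon muscle transcript covered all exonic bases (100%) of the liver-only locus, but the scaffold held 2 spliced liver loci and 1 spliced muscle locus, so the gene need not be the liver-only locus. The gene on scaffold 22887 had 22.6 RPKM in liver, against 49.2 and 40.05 RPKM in the muscle libraries. That scaffold held 3 spliced liver and 3 spliced muscle loci, and the same limit applies to its gene.

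On the scale of log2(RPKM + 1), the 3 lowest differences belonged to evm.TU.scaffold188090.1, evm.TU.scaffold21312.1 and the gene on scaffold 15238. The first had 9.14 RPKM in liver (8.08 to 10.3), against 27.6 RPKM (26.2 to 29.0) in the larger muscle library and 36.5 RPKM (34.4 to 38.7) in the smaller. The difference was -1.70. The second had 6.27 RPKM in liver (5.63 to 6.96), against 19.3 RPKM in both muscle libraries, a difference of -1.48. Its recovered length of 1219 bases was over the 849 bases that the liver-only locus spans, so it need not be that locus. On scaffold 15238 the gene had 1.23 RPKM in liver, against 4.19 and 3.68 RPKM in the muscle libraries. That gene has a recovered length of 9099 bases and its scaffold holds 3 spliced liver and 2 spliced muscle loci, so it need not be the liver-only locus, which spans 367 bases. At the liver-only loci on these 3 scaffolds a 1-exon muscle transcript covered 100%, 85.5% and 100% of the exonic bases. In all, a muscle exon lay over exons of the liver-only locus for 1 of the 11 genes past 4-fold in liver, and for 5 of the 9 genes higher in muscle. Among the genes higher in liver by under 4-fold, this held on scaffolds 19985, 20012, 21990 and 190824. It did not hold on scaffolds 2555, 12461, 12825, 15515, 22300 and 194751.

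Of the 29 genes above 0 in liver, muscle RPKM was under 1% of liver RPKM for 7 (24.1%) and under 5% for 14 (48.3%). Of all genes above 0 in liver, 2.29% were under 1% and 3.67% under 5%, and of the 512 such genes among the 518, 0.586% and 1.56%. The genes on scaffolds 20333, 22300 and 3034 that follow were chosen after their values were seen. The lowest share above 0 was 0.179%, on scaffold 20333, which held a liver-only locus of 7 exons. Its listed gene, evm.TU.scaffold20333.2, had 8.09 RPKM in liver from 695 reads, with 1 and 2 reads in the muscle libraries. As recovered, the gene length of 1855 bases matched neither the span of that locus (3686 bases) nor its 934 spliced bases. That length is a lower bound where length and reads share a factor. The ID is numbered 2 although no other gene is listed there, so the gene need not be the liver-only locus. On scaffold 22300 the gene had 0.525 RPKM in liver from 19 reads and 0 reads in both muscle libraries. The exact Poisson 95% interval for 0 reads reaches 0.0546 RPKM in the larger muscle library and 0.0992 RPKM in the smaller, and the floor of 3 reads is 0.0444 and 0.0807 RPKM. That scaffold held liver-only loci of 127 and 223 spliced bases. On scaffold 3034 the gene was listed at 0 in liver although a liver-only locus was assembled there.

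**Figure D5:**
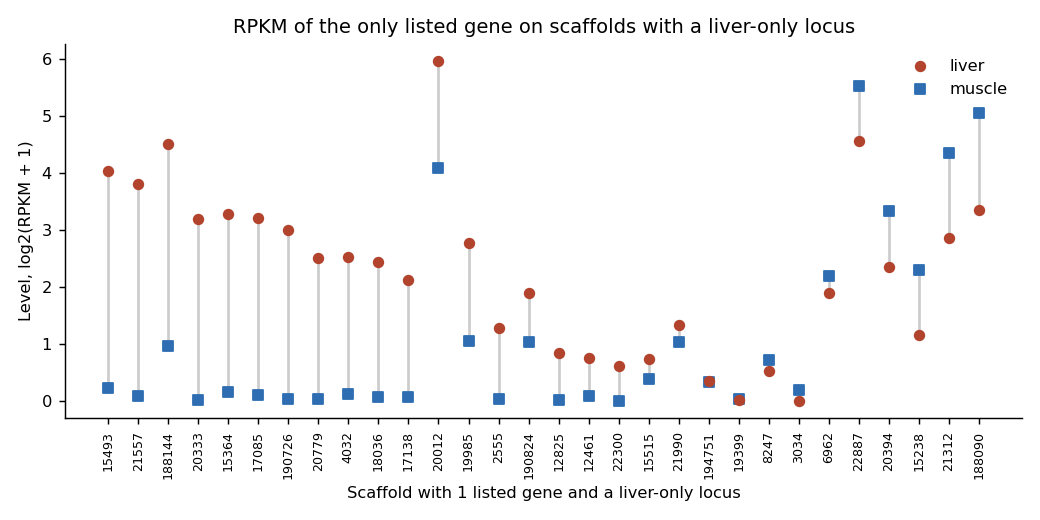
Level in liver (circles) and muscle (squares) on the scale of log2(RPKM + 1) for the 30 genes that are the only gene listed on a scaffold with a liver-only locus, 1 sample per tissue, ordered by the difference. On the left 11 genes are at least 4-fold higher in liver, and on the right 9 genes are higher in muscle.

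Over all scaffolds, genes and loci could be set side by side by scaffold only. The scaffolds with a single listed gene are included here. Scaffolds with a liver-only locus listed 202 of the 352 genes past 4-fold in liver (57.4%, Wilson 95% interval 52.2 to 62.4), and 311 of the 691 past 4-fold in muscle (45.01%, 41.3 to 48.7). They listed 6937 of all 15394 genes (45.1%). Seen from the loci, 470 liver-only loci lay on a scaffold with a listed gene. Of these, 229 (48.7%, 44.2 to 53.2) had a gene at least 4-fold higher in liver on the same scaffold. Of the other liver loci on a scaffold with a listed gene, 41.4% (40.5 to 42.4) had such a gene. All loci of a scaffold share this property, and 264 liver-only loci lay on scaffolds with 2 or more of them. The intervals in this paragraph treat genes and loci as independent, so they are too narrow to compare these shares. The same reads lie behind the gene table and the assemblies, so the shares are a description.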

How the data were processed

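Total RNA of 1 liver and 1 muscle sample was sequenced, per the labels. The submitters' processing notes list TopHat, a spliced aligner, and transcripts were assembled with Cufflinks, per the assembly files. Versions, build, annotation and the way gene length was counted are not given in sources used here. Some recovered gene lengths were near the span of the liver-only locus, introns included. They were 984 bases on scaffold 17085 (span 989, spliced 329) and 1158 on scaffold 18036 (span 1190, spliced 417). Others matched neither as recovered, such as 1035 bases on scaffold 17138 (span 11787, spliced 2240). A recovered length can be a lower bound, as given below. Where introns count as length, RPKM is lower and the pseudocount weighs more. Per the file headers, the authors deposited RPKM per gene for both tissues and 3 transcript assemblies (1 for liver, 2 for muscle), in which exons are called CDS. The Cufflinks score in the deposited files compares transcripts within a locus and gives no abundance.

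Members and lists were chosen with earlier results of these data known. Loci were named by size of exon number, length, span, transcript number, intron, distance to the rule's limit and RPKM. Differences are log2(liver RPKM + 1) minus log2(muscle RPKM + 1), which understates those of low genes. Whole reads were recovered for 29 of 30 genes from the digits of the RPKM values. These reads and the recovered gene lengths are lower bounds where length and reads share a factor. Poisson 95% intervals, Wilson intervals and the floor of 3 reads measure counting error alone. Neighbouring loci share a scaffold and a library, and introns and exons share a locus. No p-value was computed. Marker lists were not evaluated and no sequence is printed, since no names or genome were used here. Calculations used Python 3.11.15, numpy 2.4.6, scipy 1.17.1 and matplotlib 3.10.9, and were tested on simulated data.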

Additional observations from a re-analysis of the deposited data

Results flagged for a closer look

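Reads that fell on no listed gene entered no comparison of RPKM values, though transcripts in the assemblies can rest on them. Such reads made up 24.3% of the liver reads and 30.6% of the muscle reads.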

How the results depend on the processing

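The number of liver-only loci was 500, and lay between 350 and 688 under the other definitions of transcripts, strand and overlap, except with 1 muscle assembly, when it was 813 (assembly 2) or 910 (assembly 3). It was 408 when 1-exon muscle transcripts counted, 688 with strands kept apart, 681 with an overlap of at least 50%, 527 with exonic overlap and 414 with muscle loci extended by 1 kb. Limited to loci of 3 or more exons, the median exon number was 5, the spliced length 1352 bases and the span 7694 bases, since short loci are removed. Over all transcripts the median spliced length was 1391 bases. Without loci within 1 kb of a spliced muscle locus the median intron was 894.5 bases, and the cause was not tested. Counting 1-exon muscle transcripts lowered the median distance to muscle to 2661 bases. The 11 genes at least 4-fold higher in liver became 1 with a pseudocount of 5, which shrinks low values, and 16 with one of 0.1. Centring on genes with 1 RPKM or more in both tissues, whose median difference was -0.57, gave 13. Centring, the joining of close loci (484) and the limit of 3 exons in liver alone (350) were chosen after seeing the data. No paired analysis was possible because each tissue has 1 sample. Assembly depends on depth, and the muscle libraries together held more reads than liver.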

Other observations

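Liver transcripts of 1 exon also lay in the liver-only loci. Transcripts of 1 exon from the liver assembly itself shared bases with 73 of the 500 liver-only loci (14.6%, Wilson 95% interval 11.8 to 17.96), against 653 of the 10913 other spliced liver loci (5.98%, 5.55 to 6.44). On scaffolds with no listed gene there were 30 liver-only loci (6%, 4.23 to 8.44), against 305 of the others (2.79%, 2.50 to 3.12).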
